A study of Mus musculus with 6 samples.

Results

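The genes described here are the interferon receptors, the signal transducers (STATs) and interferon regulatory factors (IRFs) that act behind them, and the genes that interferon induces. They were followed in double negative thymocytes of wild type mice and of Egr1/Egr3 double knockout mice. Members were chosen by a rule on gene symbols, set with earlier results of these data known. The rule took each Irf or Stat with a number, each symbol that starts with Ifi, Isg or Oas, and each numbered Gbp. It also took the receptors, Ifng, Mx1, Mx2, Usp18, Rsad2, Igtp, Irgm1, Bst2, Ddx58, Dhx58 and Xaf1. Of 45037 probe sets that are not controls, 108 met this rule, and they stand for 73 of 18193 named genes. A filter on dim probe sets left 92 of the 108 probe sets and 66 of the 73 genes for the test, among 13187 genes tested in all. The 7 genes left out as too dim were Gbp2b, Ifi204, Ifi207, Ifi44l, Ifitm5, Oas1e and Oas1h. Another 10 probe sets also name a gene outside the rule or several members at once and were kept apart, among them the one for Isg15.

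Double negative thymocytes are the early T cell precursors that carry neither CD4 nor CD8. Per the sample descriptions they were sorted by flow cytometry, while the titles name the whole thymus. Each of 3 wild type animals and 3 double knockout animals gave 1 single-colour array. Egr1 and Egr3 are zinc finger transcription factors of T cell receptor signalling. The labels used here do not state strain, age, sex or how the 2 genes were disrupted.

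Type I interferons act through a receptor built from Ifnar1 and Ifnar2, and interferon gamma acts through Ifngr1 and Ifngr2. JAK kinases bound to these receptors phosphorylate STATs. STATs then enter the nucleus, where complexes that hold Stat2 and Irf9 bind interferon-stimulated response elements, whereas STAT dimers bind a shorter palindrome. Among the genes switched on are RNA sensors, antiviral proteins such as the Ifit and Oas families, immunity GTPases, and inhibitors such as Usp18 that end the signal. In the thymus, interferon signalling is best known from late stages of T cell maturation.

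Several properties of the arrays bear on every value below. Egr1, a targeted gene, read 508, 509 and 455 in wild type and 1757, 1696 and 1221 on the others. It was thus higher where the label says knockout (log2 change 1.60, SE 0.22, limma adjusted p = 0.00263). Egr3 was dim, with a log2 change of -0.59 (SE 0.35, limma adjusted p = 0.348). Whether these probes lie inside the disrupted sequence is not stated in the labels, so directions are stated for the arrays as labelled. Wild type replicate 3 stood apart, with a summed intensity of 308 over 9 granulocyte markers, against 11400 to 24736 in the other wild type samples and 18394 to 27584 on the arrays with the knockout label. The Y-linked Eif2s3y read 476, 13.2 and 0.625 in wild type and 199, 265 and 186 on the others, while the X inactivation transcript Xist read at least 1439 on each. Another Y-linked gene, Kdm5d, read 144, 8.81 and 2.52 in wild type and 17.5, 29.5 and 10.3 on the others, on its brightest probe set. Both Y-linked genes thus gave a clear signal beside Xist on wild type replicate 1, against the label of 1 animal per array. On the 3 arrays with the knockout label Kdm5d was dim, and the Y-linked signal beside Xist rested on Eif2s3y. The summed markers of double negative thymocytes were 31637 to 39732 in wild type and 19425 to 20736 on the others, without overlap. All 9 tested had a change below 0, with a median of -0.72, and 3 of them (Ptcra, Il2ra and Dntt) were called lower, beside 2.84% of all genes. The brightest of 27 bacterial control probe sets read between 19.0 and 29.9 on the 6 arrays, which marks the level of signal without mouse RNA.

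The promoters of some members hold elements through which interferon acts, and examples are printed for genes on both sides of the results. Of the 73 genes, 60 have a promoter in RefSeq's table of assembly GRCm38.p6. The 250 bases before each start site were searched on both strands for the core of an interferon-stimulated response element (GAAA, any 2 bases, GAAA) and for TTCNNNGAA, the STAT palindrome. The first was found in 22 of the 60 genes (36.7%) against 3.46% of 27025 genes in the table. The second was found in 13 (21.7%) against 8.13%. Matches are in capitals, and a response element on the opposite strand appears as TTTC, 2 bases, TTTC. First come 5 genes whose mean was higher in the arrays with the knockout label.
Igtp, chr11:58199486-58199555, plus strand: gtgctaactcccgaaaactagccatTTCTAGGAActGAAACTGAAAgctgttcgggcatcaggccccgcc
Irgm1, chr11:48871421-48871475, minus strand: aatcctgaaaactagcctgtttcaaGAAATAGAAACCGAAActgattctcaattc
Bst2, chr8:71537562-71537633, minus strand: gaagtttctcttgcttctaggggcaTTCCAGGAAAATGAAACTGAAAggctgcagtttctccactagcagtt
Irf1, chr11:53769899-53769957, plus strand: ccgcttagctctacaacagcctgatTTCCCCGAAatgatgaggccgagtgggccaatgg
Stat4, second start site in the table, chr1:52008118-52008177, plus strand: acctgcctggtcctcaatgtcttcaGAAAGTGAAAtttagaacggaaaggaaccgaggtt
Next come 4 antiviral effectors with the same elements whose mean was not higher there.
Ifit1, chr19:34640760-34640838, plus strand: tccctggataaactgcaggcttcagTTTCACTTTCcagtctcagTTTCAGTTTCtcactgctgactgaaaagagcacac
Ifit3, chr19:34583348-34583441, plus strand: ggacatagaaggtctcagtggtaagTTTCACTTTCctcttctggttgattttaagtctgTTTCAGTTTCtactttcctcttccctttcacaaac
Oas1a, chr5:120907526-120907648, minus strand: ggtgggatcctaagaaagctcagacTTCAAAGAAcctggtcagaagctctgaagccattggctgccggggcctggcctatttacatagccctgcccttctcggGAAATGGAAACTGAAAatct
Rsad2, chr12:26456538-26456597, minus strand: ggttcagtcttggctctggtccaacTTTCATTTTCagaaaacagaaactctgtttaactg
In Bst2, the palindrome overlaps the first of 2 response element matches, which overlap each other, and the paired matches of Irgm1 and Oas1a overlap likewise. In Igtp both motifs stand apart, at 45 and 34 bases before the start. Among members whose groups did not overlap, the response element was found in 4 of 10 that were higher and in 1 of 5 that were lower, and among those with overlap in 15 of 40. No match was found for Ifngr1, Ifnar1, Irf9, Irf3, Ddx58 or Ifih1, nor at the first start site of Stat4. Usp18 has no promoter in the table. Of the 3 members called below, 2 had a promoter there and 1 held the response element. A match describes letters in this window and is not a measured binding site.

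Taken as a set, the members did not stand out from the array in the main fit. At an adjusted p of 0.05, 3 of the 66 tested genes changed, all 3 of them higher in the arrays with the knockout label: Stat4, Ifngr1 and Usp18. That is 4.55% of the members, where 6.98% of all genes tested were called (4.14% higher and 2.84% lower). No member was called lower, although 4 were lower and 13 higher at an unadjusted p under 0.05, which 20.9% of all genes reached. The median log2 change was 0.03 over the members and -0.01 over all genes. The groups did not overlap in 17 members (25.8%), 11 of them higher and 6 lower, beside 26.1% of all genes; overlap was judged on centred log2 values. Without wild type replicate 3, 11 members were called, 8 higher and 3 lower. That is 16.7% of the members, beside 14.5% of all genes. Among 20 members with several tested probe sets, the probe sets differed in sign in 8: Dhx58, Ifi27, Ifnar2, Irf5, Rsad2, Stat5b, Stat6 and Xaf1.

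**Figure D1:**
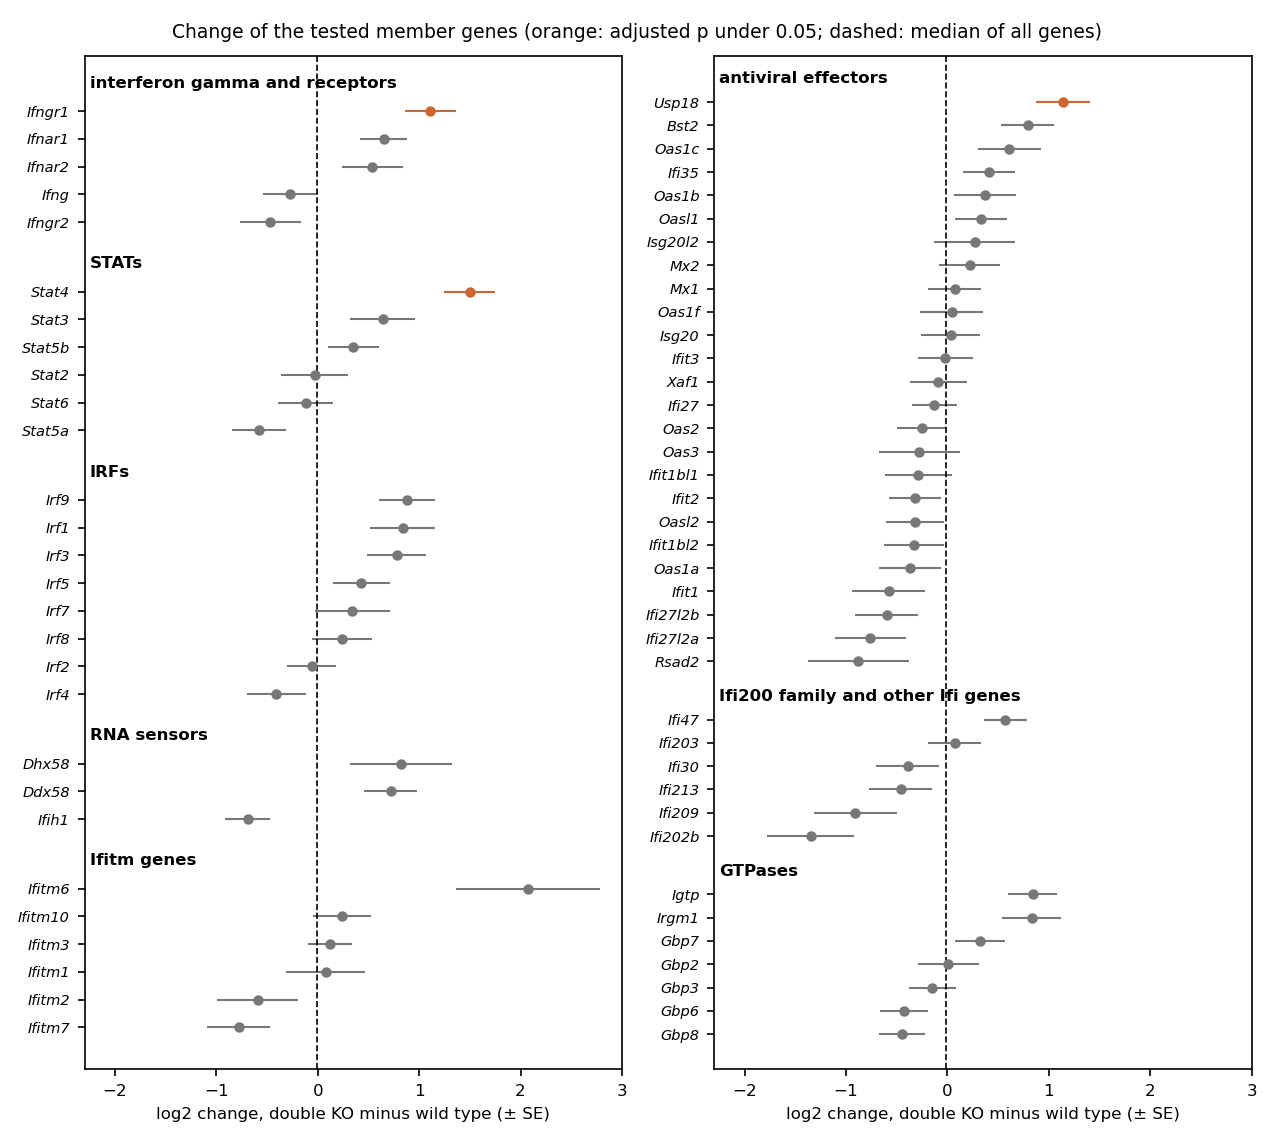
Log2 change of each of the 66 tested genes on the horizontal axis, arrays with the knockout label minus wild type arrays on the scale of intensity plus 16, with the SE of the limma fit as bars and genes grouped by role. Orange marks Stat4, Ifngr1 and Usp18, the genes with an adjusted p under 0.05, and the dashed line marks the median of all genes at -0.01.

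Ifngr1, the ligand-binding chain of the interferon gamma receptor, was 2.15-fold higher in the arrays with the knockout label. It read 878, 976 and 1475 in wild type and 2625, 2464 and 2077 on the others. The highest wild type array lay below the lowest of the other group. The log2 change was 1.11 (SE 0.25, n = 3 and 3, limma adjusted p = 0.0227). The call was lost when any array other than wild type replicate 3 was left out, with changes between 0.94 and 1.20 and limma adjusted p up to 0.148. Its partner chain Ifngr2 was dim and not higher, at 67.9, 60 and 107 against 62.2, 30.8 and 68.2, and the groups overlapped (log2 change -0.47, SE 0.30, limma adjusted p = 0.435).

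Ifnar1, the signalling chain of the type I interferon receptor, did not pass the gene test. On its brighter probe set, it read 85.4, 113 and 120 in wild type and 170, 195 and 164 on the others. Every array with the knockout label lay above every wild type array, with a log2 change of 0.65 (SE 0.23, limma adjusted p = 0.135). The dimmer probe set read 10.8, 12.5 and 20.2 in wild type, below the bacterial controls of those arrays, against 39.8, 57.5 and 42.7. It was among the 4 of 92 member probe sets called over all probe sets, beside 5.03% of all, but with its wild type level not above background the size of its change was not measured. Ifnar2, the other chain of that receptor, gave 0.54 (SE 0.30), 0.85 (SE 0.39) and -0.28 (SE 0.37) on its 3 probe sets, with overlap in each. Ifng itself, the interferon gamma gene of activated T and NK cells, read between 22.1 and 31.6 in wild type and between 13.0 and 23.5 on the others, near the bacterial controls (log2 change -0.27, SE 0.27, limma adjusted p = 0.642).

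Stat4, which carries signals of interleukin 12 and of type I interferon in T and NK cells, changed more than any other STAT measured. It read 104, 163 and 132 in wild type and 401, 381 and 431 on the arrays with the knockout label. The values were close within each group and far apart between them, 133 ± 29.7 against 405 ± 25.2 (mean and SD, n = 3 each). On the log2 scale of intensity plus 16, the difference was 2.82-fold (log2 change 1.50, SE 0.25, limma adjusted p = 0.00547). Stat4 was the 1 member called under all 16 alternative settings and left-out arrays, with changes between 1.25 and 1.67 and limma adjusted p between 0.000372 and 0.0464. Of 6 tested genes of the NK cell marker list, 4 were also called higher in these arrays: Nkg7, Klrd1, Il2rb and Gzmb, beside 4.14% of all genes. Prf1 was not called (log2 change 0.35, SE 0.27, limma adjusted p = 0.52), and neither was Gzma. The summed NK list ranged from 11381 to 16267 in wild type and from 14405 to 15196 on the others, but most of this sum was Gzma, with a log2 change of -0.08. Without Gzma, left out after its values were seen, the sum of 6 genes was 623, 654 and 415 in wild type. On the others it was 3091, 2191 and 3916, most of it Nkg7 at 1929, 1243 and 2423. Gzma was the tested marker that did not rise, so the lack of overlap in this sum is no separate support. Ncr1 stayed at or below the bacterial controls on all 6 arrays. The part of such cells in the Stat4 value was not tested. In bulk samples a change in the share of a cell type and a change in RNA per cell cannot be told apart.

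The other STATs did not pass. Stat3, the transducer of interleukin 6 family signals, read 251, 317 and 207 against 458, 262 and 576, so that 1 array with the knockout label lay among the wild type values (log2 change 0.64, SE 0.32, limma adjusted p = 0.293). Stat5a and Stat5b transmit interleukin 7 and interleukin 2 signals. Stat5a read 251, 339 and 406 against 242, 175 and 235, and the groups overlapped after centring (log2 change -0.58, SE 0.27, limma adjusted p = 0.247). Stat5b gave 0.35 (SE 0.25) on its brighter probe set and -0.82 (SE 0.32) on a dimmer one, so its direction depended on the probe set. Stat2, the type I interferon transducer, had a log2 change of -0.03 (SE 0.33), and Stat6, the interleukin 4 transducer, one of -0.12 (SE 0.27).

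**Figure D2:**
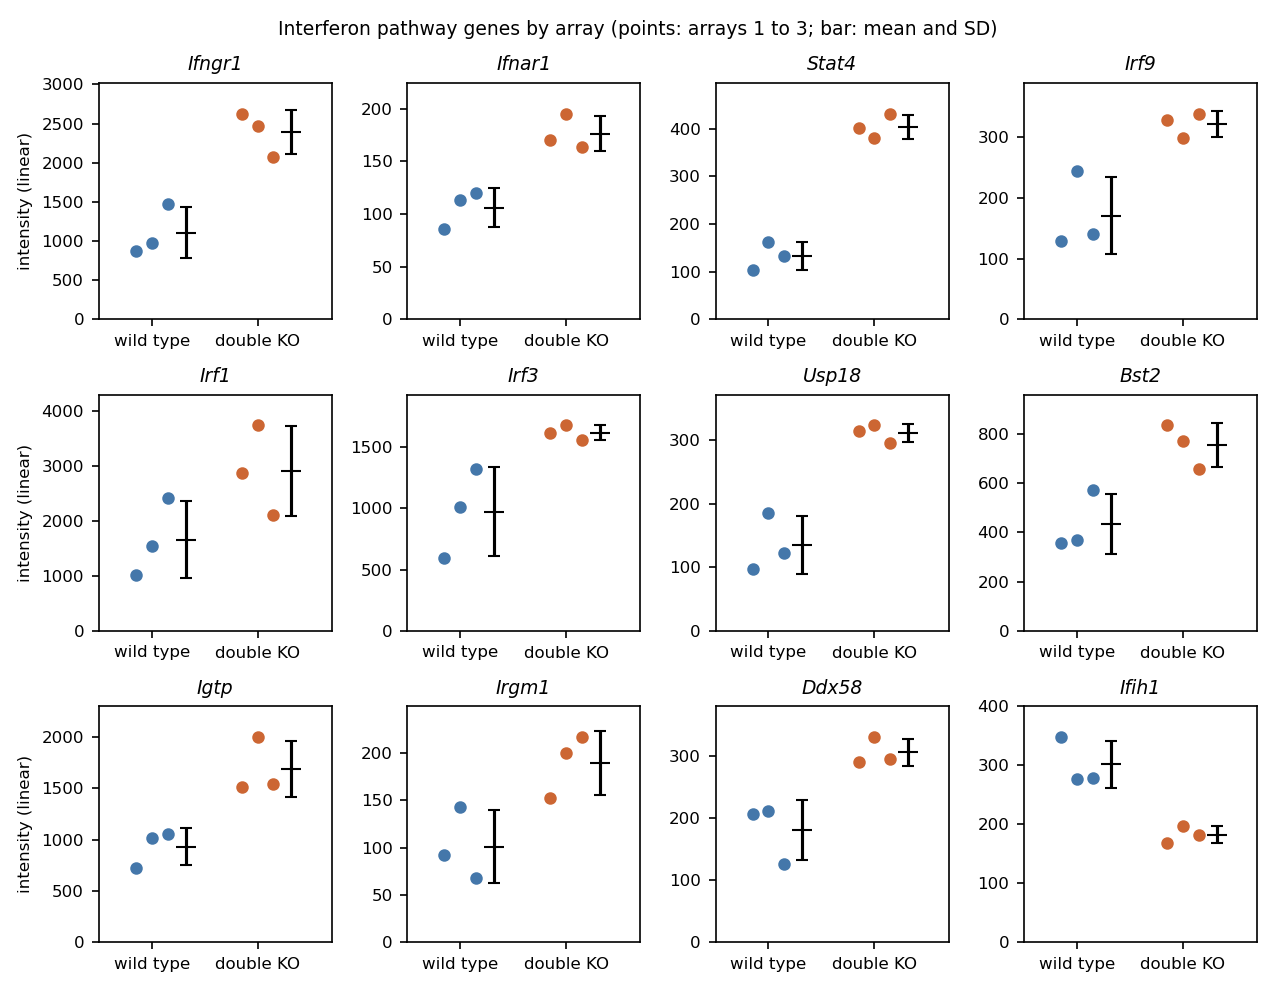
Linear intensity on the vertical axis for 12 members, each from its brightest probe set, with 1 point per array and the mean with SD of 3 arrays beside each group. Stat4 read 104 to 163 in wild type and 381 to 431 on the arrays with the knockout label, whereas the 2 groups overlap in Irf1, and Ifih1 lies lower in the arrays with the knockout label.

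No IRF passed the test. An unadjusted p under 0.05 was reached by 3 of 8, all 3 higher in the arrays with the knockout label, beside 20.9% of all genes. Irf9, the DNA-binding partner of Stat2, read 129, 244 and 141 against 329, 299 and 339, without overlap (log2 change 0.88, SE 0.28, limma adjusted p = 0.0948), and it was called without wild type replicate 2. Irf3, which starts the interferon response after virus sensing, read 594, 1007 and 1319 against 1617, 1677 and 1554, also without overlap (log2 change 0.78, SE 0.29, limma adjusted p = 0.15). Its other tested probe sets gave 1.02 (SE 0.36) and 0.60 (SE 0.36), the same direction with overlapping groups. Irf1, an early target of interferon gamma that also supports CD8 T cell maturation, read 1012, 1551 and 2409 against 2869, 3735 and 2112. In Irf1 wild type replicate 3 lay above double knockout replicate 3, so the groups overlapped (log2 change 0.84, SE 0.32, limma adjusted p = 0.16). Without wild type replicate 3, both Irf1 and Irf3 were called.

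The remaining IRFs did not pass either. Irf7, the amplifier of type I interferon production and itself strongly induced by interferon, read 87.2, 92.1 and 33.0 against 102, 55.3 and 122 (log2 change 0.34, SE 0.37, limma adjusted p = 0.661). Irf8, a factor of myeloid and dendritic cells, had a log2 change of 0.24 (SE 0.30) and Irf5, which acts behind Toll-like receptors, one of 0.43 (SE 0.28). Irf2, an antagonist of Irf1, had a change of -0.06 (SE 0.24). Irf4, a factor of activated lymphocytes, was at or below the bacterial controls on 5 of 6 arrays, and its groups did not overlap, with the arrays with the knockout label lower (log2 change -0.41, SE 0.29, limma adjusted p = 0.487).

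The cytoplasmic RNA sensors went different ways without passing the test. Ddx58, which encodes RIG-I, read 206, 212 and 126 in wild type and 291, 331 and 296 on the others (log2 change 0.72, SE 0.26, limma adjusted p = 0.134). Ifih1, which encodes the related sensor MDA5, read 348, 277 and 279 against 168, 197 and 181 (log2 change -0.69, SE 0.22, limma adjusted p = 0.0951). In both genes the groups did not overlap, in opposite directions. Without wild type replicate 3, Ifih1 was called lower. Dhx58, which encodes the regulator LGP2, spread from 4.99 to 91.7 in wild type alone (log2 change 0.82, SE 0.50, and -0.20, SE 0.25, on another probe set).

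Of 25 tested antiviral effectors and related genes, Usp18 alone was called. Usp18, the protease that removes ISG15 from proteins and blocks signalling at Ifnar2, read 97.2, 186 and 122 in wild type and 314, 323 and 295 on the others. The group of arrays with the knockout label was narrow, 311 ± 14.1 against 135 ± 45.7 (mean and SD, n = 3 each), a 2.20-fold difference. The log2 change was 1.14 (SE 0.27, limma adjusted p = 0.0317). The call was lost without wild type replicate 1 (log2 change 0.93) and without any 1 of the arrays with the knockout label (limma adjusted p up to 0.148). Bst2, or tetherin, which holds budding virus at the membrane, read 359, 369 and 574 against 835, 772 and 658, without overlap (log2 change 0.79, SE 0.26, limma adjusted p = 0.098), and it was called without wild type replicate 3.

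In the effector families that serve as classical readouts of type I interferon no gene was called. All 5 Ifit genes, which encode proteins that bind foreign RNA, had changes below 0, from -0.58 to -0.02 on the log2 scale, with overlapping groups and limma adjusted p of 0.402 or more. Ifit3, for example, read 137, 130 and 72.5 against 119, 102 and 109. Of 8 tested Oas genes, the family that makes the activator of RNase L, 4 leaned higher and 4 lower, from -0.37 to 0.61, and the groups overlapped in each. Oas1a read 182, 337 and 150 against 157, 175 and 155, and Oas1c, the member of smallest p, read 51.6, 83.8 and 112 against 123, 186 and 97.1. The dynamin-like GTPase genes Mx1 and Mx2 lay between 6.85 and 35.4 on all 6 arrays, at or near the bacterial controls, with changes of 0.07 and 0.22. Across the 25 genes of this class the median log2 change was -0.09, beside -0.01 for all genes.

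Rsad2, which encodes viperin, read 239, 234 and 1189 in wild type and 219, 241 and 198 on the others, and a second probe set was likewise high on wild type replicate 3 alone, at 143 against 41.1 to 44.8 elsewhere. On that array the summed erythroid markers were also highest, at 3232 against 39 to 369 elsewhere. Nearly all of that sum was Alas2, at 3142, while Hba-a1 and Epor were dim there, at 39 and 50.6. The part of erythroid cells in the Rsad2 value was not tested. Ifi27l2a read 639, 765 and 298 against 259, 283 and 404 (log2 change -0.76, SE 0.35, limma adjusted p = 0.251). It was called lower without wild type replicate 3. Ifi35, with 3 tested probe sets, gave 0.41 (SE 0.26), 0.62 (SE 0.38) and 0.62 (SE 0.29) with overlap in each, and it was called without wild type replicate 3. Isg20, Isg20l2, Xaf1 and Ifi27 had changes between -0.13 and 0.27 and overlapping groups.

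**Figure D3:**
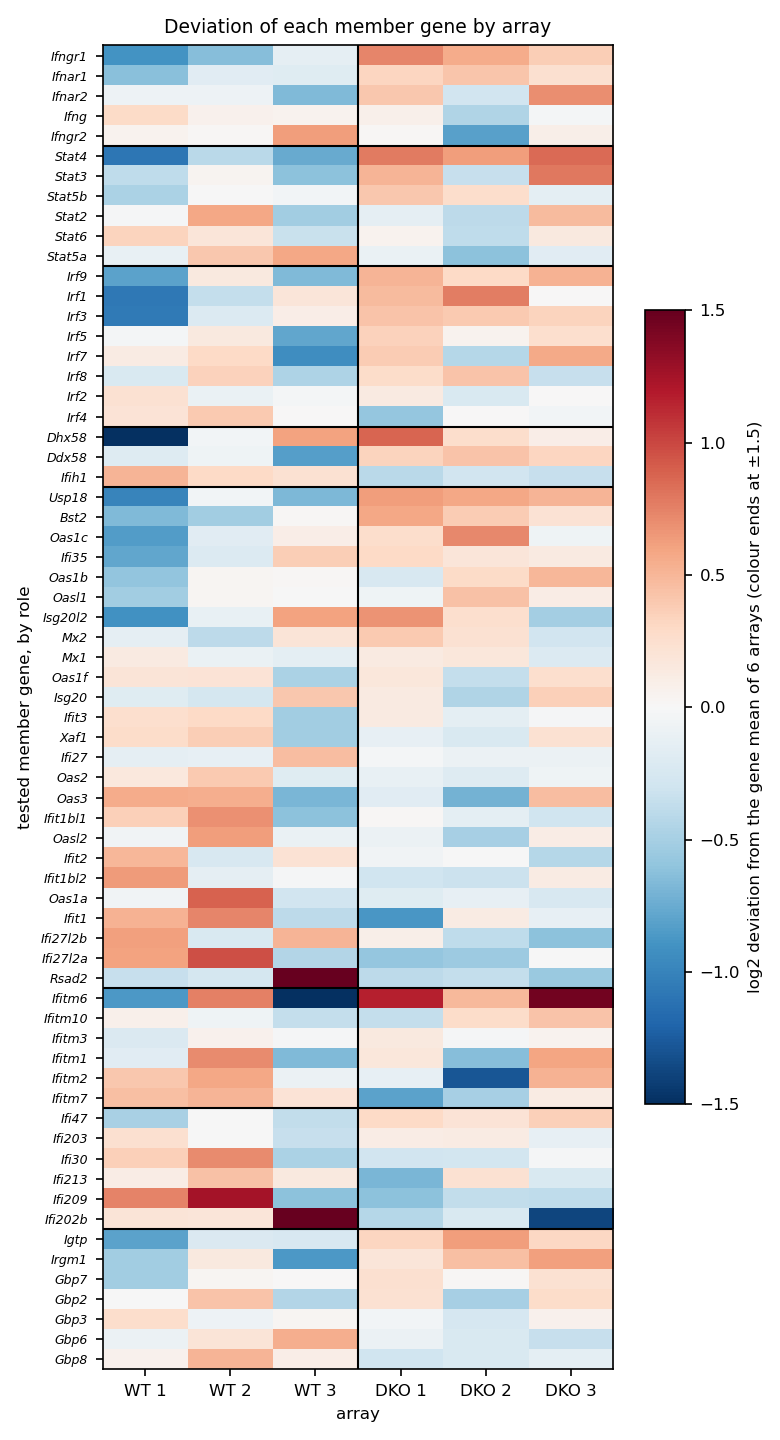
Deviation of each tested gene (rows, grouped by role) on each of the 6 arrays (columns) from its own mean over the arrays, in log2 units, with red for higher and blue for lower. The rows of Stat4, Ifngr1 and Usp18 change colour between the groups, whereas Rsad2 is high on wild type replicate 3 alone and the groups overlap in each Ifit and Oas row.

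Ifitm6 had the largest point estimate of all members but did not pass. The Ifitm genes encode small membrane proteins that hinder virus entry. Ifitm6 read 161, 491 and 23.5 in wild type and 673, 444 and 846 on the others, and double knockout replicate 2 lay below wild type replicate 2 (log2 change 2.07, SE 0.71, limma adjusted p = 0.118). The summed granulocyte markers were 11400, 24736 and 308 in wild type and 23179, 18394 and 27584 on the others, so the array with the lowest Ifitm6 also had the lowest granulocyte signal. The alarmin gene S100a8 of that list read 20.4 on wild type replicate 3 and at least 5282 elsewhere. The part of granulocytes in the Ifitm6 value was not tested. Without wild type replicate 3 the change was 1.09 (limma adjusted p = 0.103), and without wild type replicate 2 it was 2.97 and called (limma adjusted p = 0.0275).

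**Figure D4:**
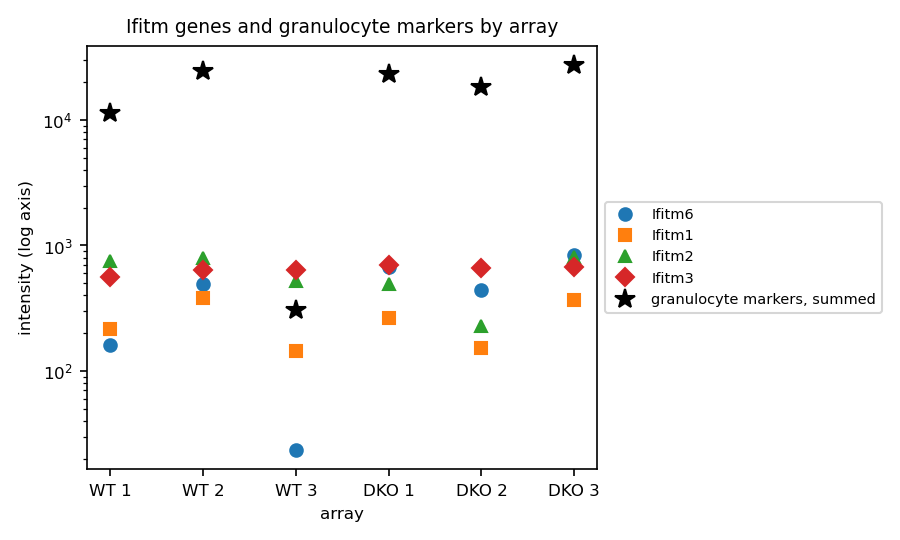
Intensity on a log axis for 4 Ifitm genes and for the sum of 9 granulocyte markers (stars) on each of the 6 arrays. Both Ifitm6 and the marker sum are lowest on wild type replicate 3, at 23.5 and 308, while Ifitm3 stays between 562 and 700 on all arrays.

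The other tested Ifitm genes did not pass either. Ifitm3, the most studied restriction factor of the family, was even, at 562, 638 and 639 against 700, 658 and 670 (log2 change 0.12, SE 0.22). Ifitm2 read 756, 796 and 523 against 496, 228 and 804, a spread within the arrays with the knockout label larger than the difference of the means (log2 change -0.59, SE 0.40). Ifitm1, a marker of early progenitors and germ cells as well as an interferon target, read 215, 378 and 145 against 262, 153 and 365 (log2 change 0.08, SE 0.39). Like Ifitm6, Ifitm1 was lowest on wild type replicate 3, at 145, but it read 153 on double knockout replicate 2. The summed granulocyte markers were 308 on the former array and 18394 on the latter. The part of granulocytes in the Ifitm1 value was not tested. Ifitm7, at most 33.2 on any array, gave -0.78 (SE 0.31, limma adjusted p = 0.17), and Ifitm10 gave 0.24 (SE 0.29).

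No gene of the HIN-200 family of DNA-binding proteins was called. Ifi202b, which lacks the signalling domain of its relatives, read 57.9, 52.2 and 186 in wild type and 29.9, 40.2 and 8.46 on the others, without overlap (log2 change -1.35, SE 0.43, limma adjusted p = 0.09). Ifi209 read 73.5, 102 and 18.4 against 17.4, 26.2 and 24.3, with wild type replicate 3 among the values of the other group (log2 change -0.91, SE 0.41, limma adjusted p = 0.235). Ifi209 was called lower without that array. Its second tested probe set read 38.4, 44.3 and 26.6 against 21.6, 11.3 and 15.0, lower without overlap. The log2 change there was -0.73 (SE 0.28, limma adjusted p over probe sets = 0.177). Each Ifi209 probe set was at or below the bacterial controls on 3 of 6 arrays. Ifi213 was at or below the bacterial controls on 5 of 6 arrays (log2 change -0.46, SE 0.31), and Ifi203 gave 0.07 (SE 0.26). Ifi30, the lysosomal thiol reductase of antigen processing, had a change of -0.39 (SE 0.31).

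Among the members, no immunity-related GTPase and no guanylate-binding protein was called. Interferon gamma induces the immunity-related GTPases, which attack the vacuoles of intracellular microbes. Irgm2 and Iigp1 of this family lie outside the membership rule and were called higher, as given below. Igtp read 725, 1017 and 1055 in wild type and 1518, 2003 and 1546 on the others (log2 change 0.84, SE 0.24, limma adjusted p = 0.0622). Irgm1 read 91.8, 143 and 68.0 against 152, 200 and 217 (log2 change 0.83, SE 0.29, limma adjusted p = 0.12). Ifi47, another GTPase of this family, read 1378, 1801 and 1479 against 2279, 2275 and 2429 (log2 change 0.57, SE 0.21, limma adjusted p = 0.149). In each of these 3 genes all arrays with the knockout label lay above all wild type arrays. Igtp passed with quantile normalization and without wild type replicate 3. Of 5 tested Gbp genes none was called, with changes from -0.45 to 0.32. Gbp8 read 913, 1162 and 918 against 675, 750 and 768, lower without overlap (log2 change -0.45, SE 0.23, limma adjusted p = 0.293), and Gbp6 gave -0.43 (SE 0.24).

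Genes of the same pathway outside the membership rule were taken from 5 lists. Of 87 tested, 14 were higher and 2 lower in the arrays with the knockout label (18.4%, beside 6.98% of all genes). Their median log2 change was 0.24. The lists were chosen with earlier results of these data known, so the share is no test of an excess over all genes. Some cell type markers moved as well: 4 of 6 NK markers were called higher (median 1.64), and the 9 double negative thymocyte markers had a median of -0.72. The 8 granulocyte markers, 6 of them above 0, had a median of 1.78, with none called and overlapping groups in each. Their sum was 308 on wild type replicate 3 but 24736 on wild type replicate 2, within the 18394 to 27584 of the arrays with the knockout label. The part of these cell types in the pathway counts was not tested. In the list of JAK kinases and inhibitors, 2 of 16 rose and none fell. Jak2, the kinase bound to Ifngr2, read 553, 398 and 390 against 984, 776 and 1131 (log2 change 1.06, SE 0.25, limma adjusted p = 0.029), and its dimmer probe set gave 1.71 (SE 0.26). Cish, an inhibitor induced by STAT5, rose by 0.96 (SE 0.24, limma adjusted p = 0.0399). Socs1, the inhibitor of interferon receptor kinases, named here after its values were seen, read 23.6, 14.5 and 36.4 against 68.4, 50.2 and 77.1 (log2 change 1.00, SE 0.28, limma adjusted p = 0.0558).

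**Figure D5:**
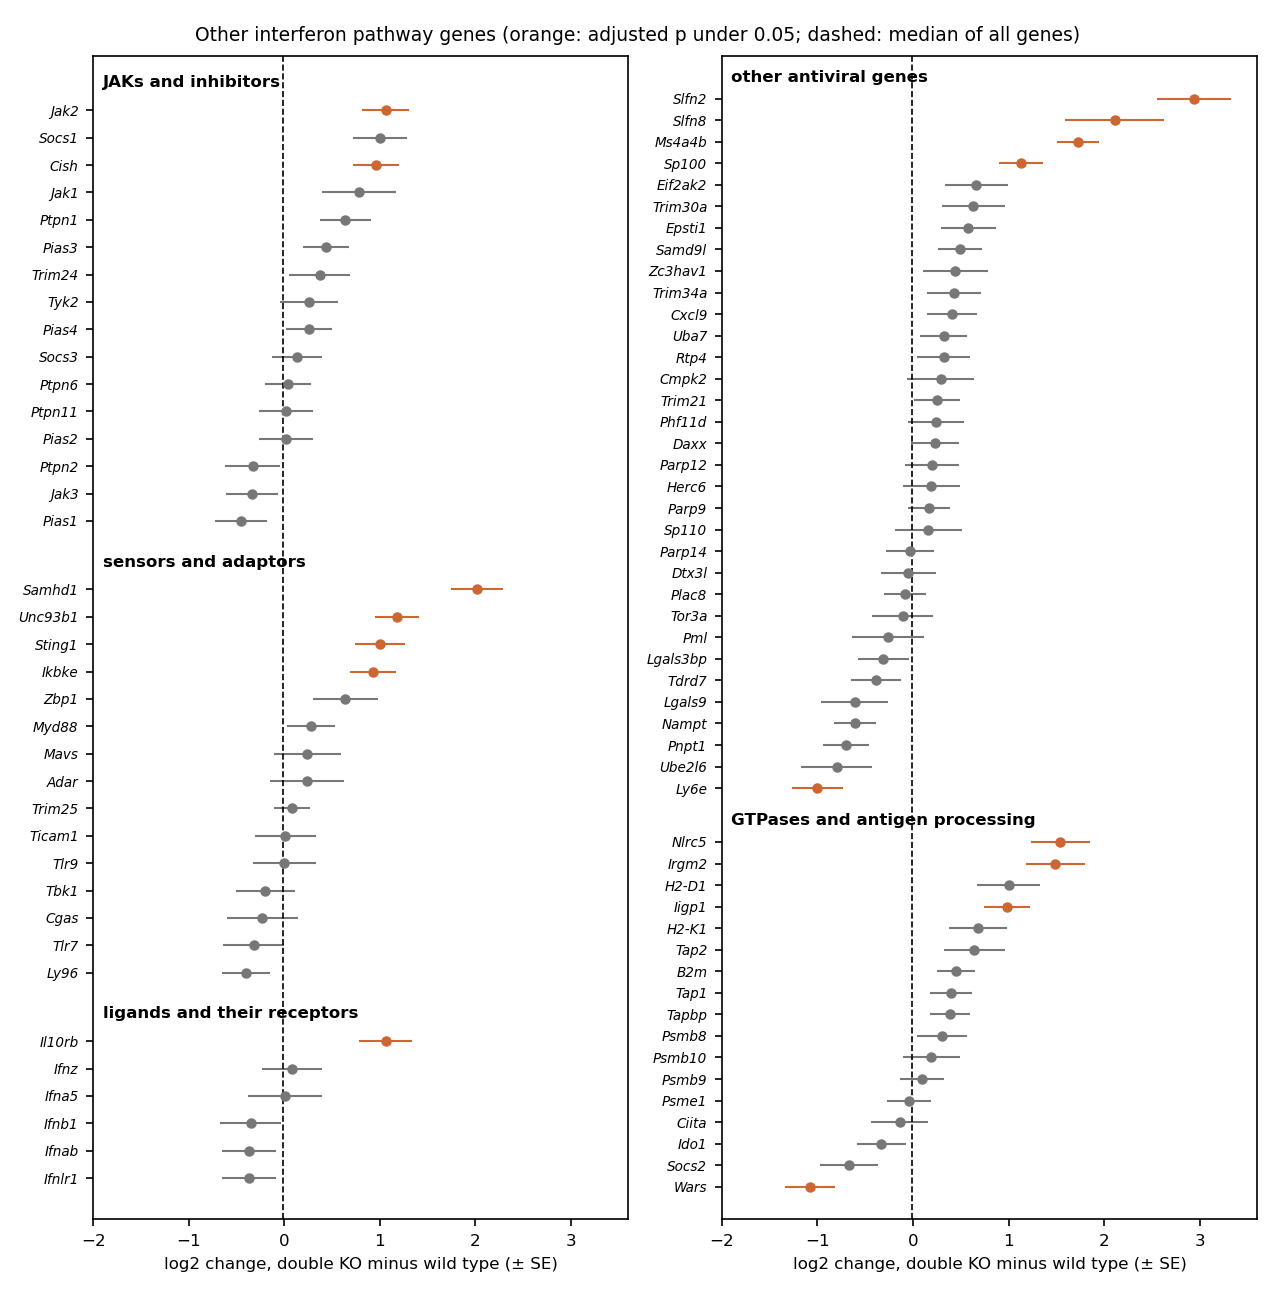
Log2 change with SE of 87 tested interferon pathway genes outside the membership rule, in 5 lists, arrays with the knockout label minus wild type arrays. Orange marks the 16 genes with an adjusted p under 0.05, 14 of them to the right of the dashed median of all genes at -0.01.

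Of 15 nucleic acid sensors and their adaptors, 4 rose and none fell. Samhd1, a dNTP hydrolase that restricts retroviruses, read 115, 119 and 71.1 against 500, 375 and 509 (log2 change 2.02, SE 0.27, limma adjusted p = 0.00153), and it was called under all 16 alternatives. Unc93b1, the chaperone of endosomal Toll-like receptors, rose by 1.18 (SE 0.23), Sting1, the adaptor of cytosolic DNA sensing, by 1.00 (SE 0.26), and the kinase gene Ikbke by 0.93 (SE 0.24). The Sting1 call had a limma adjusted p of 0.0467, and its other probe set gave 0.39 (SE 0.31). Of 3 dimmer tested Samhd1 probe sets, 2 gave 1.25 and 1.09 and the third gave -0.06.

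Of 17 other GTPases and antigen processing genes, 3 rose and 1 fell. Irgm2, from the family of Igtp and Irgm1, read 94.6, 163 and 225 against 446, 560 and 391 (log2 change 1.49, SE 0.31, limma adjusted p = 0.0161). Iigp1 rose by 0.98 (SE 0.24, limma adjusted p = 0.0326), while its other probe set gave 0.39 (SE 0.29). Nlrc5, the transactivator of MHC class I genes, rose by 1.54 (SE 0.31, limma adjusted p = 0.0135). Wars, a tRNA synthetase that interferon gamma induces, fell by 1.08 (SE 0.26, limma adjusted p = 0.0323) and read 814, 772 and 596 against 406, 262 and 357.

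Of 33 further antiviral and interferon-induced genes, 4 rose and 1 fell. Slfn2, a Schlafen gene of T cell quiescence, read 312, 467 and 173 against 3281, 1557 and 2714 (log2 change 2.94, SE 0.39, limma adjusted p = 0.00142). Slfn8 rose by 2.11 (SE 0.52), Ms4a4b, a T cell surface protein gene, by 1.73 (SE 0.22), and Sp100, a nuclear body component, by 1.13 (SE 0.23). The other Sp100 probe set gave 0.27 (SE 0.44). Ly6e, a surface protein gene of immature thymocytes and an interferon target, fell by 1.00 (SE 0.27, limma adjusted p = 0.0497), while its other probe set gave 0.24 (SE 0.28). Among 6 tested interferon ligand and receptor genes, Il10rb, a receptor chain shared by interleukin 10 and lambda interferons, rose by 1.06 (SE 0.28, limma adjusted p = 0.0446). Ifnab, a type I interferon gene, had a change of -0.37 (SE 0.28), and no ligand gene was called.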

How the data were processed

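The deposited table holds linear intensities, 1 for each of 45101 probe sets and 6 arrays. Their mean without the highest and lowest 2% is 150 as an average over the 6 arrays. That average alone does not show whether each array had been scaled to a common level. The labels used here name no scanner software and no detection calls. The 64 control probe sets were left out, an offset of 16 was added, log2 was taken, and each array was centred on its median (the medians differed by 0.126). Changes are thus understated for dim genes. Probe sets under the 40th percentile of mean log2 value (4.87, an intensity of 13.2) were not tested, which left 27022. Each gene took the values of the probe set with the highest mean.

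The test was that of limma 3.58.1 under R 4.3.3, using lmFit and a trended eBayes, over the 13187 genes, and separately over all probe sets, with Benjamini-Hochberg adjustment at 0.05. SE is the moderated standard error. Genes were named through the platform annotation and symbols updated through RefSeq gene identifiers of assembly GRCm38.p6. Of 34945 probe sets with 1 symbol, 34741 matched. The fit was tested on simulated data. A gene that missed the threshold is not shown to be the same in both groups.

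Members and lists were chosen with earlier results of these data known. Values are given for members that passed, for every receptor, STAT and IRF, for at most 4 genes per remaining role, by p, and for pathway genes that passed or had the 2 smallest p of their list. The examples Ifit1, Ifit3, Oas1a, Rsad2, Ifitm1, Ifitm3, Mx1, Mx2, Ifi203, Ifi30, Ifi35 and the 4 effectors with small changes were added outside this rule. With 3 arrays a group, their number limits the precision. Each array is labelled as 1 animal, and p-values measure the spread between these arrays.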

Additional observations from a re-analysis of the deposited data

How the results depend on the processing

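Counts of called genes moved with the arrays and the model. With array weights, 20 members were called (11 higher, 9 lower), and 2909 genes across the array. That is 30.3% of the members, beside 22.1% of all genes. The share of members thus lay above that of all genes, whereas in the main fit it lay below (4.55% beside 6.98%). Other pathway genes called were 26 (6 lower), and member probe sets 14. With the replicate number as a block, 1 member was called, higher (1.52% of members, beside 2.8% of all genes). That setting called 369 genes across the array, 5 other pathway genes (5 higher, 0 lower) and 1 member probe set. The numbers do not pair the arrays: deviations of same-numbered arrays correlated at -0.0467, -0.133 and -0.291. With an offset of 1 and with no filter, 10 other pathway genes were called (9 higher, 1 lower) and 2 member probe sets. With quantile normalization, with no intensity trend and with probe sets averaged, 1 other pathway gene was called lower.

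With 1 array left out, members called ranged from 1 to 11 (1 to 8 higher and 0 to 3 lower), genes across the array from 279 to 1903, other pathway genes from 3 to 20 (3 to 16 higher and 0 to 4 lower) and member probe sets from 0 to 12. The highest counts came without wild type replicate 3, and the lowest of genes across the array without double knockout replicate 1. The share of members called lay above that of all genes without wild type replicate 3 (16.7% beside 14.5%). It also did so without wild type replicate 2 (6.15% beside 3.99%). Without any other array it lay below.

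Among named genes without a call, some directions turned. With array weights Ifitm10 gave -0.13 and Irf2 gave 0.10, and with probe sets averaged Stat5b gave -0.23. With 1 array left out, Irf2 ranged from -0.15 to 0.04, Stat2 from -0.30 to 0.25, Stat6 from -0.32 to 0.04 and Irf7 from -0.03 to 0.65. The cause was not tested. Of the 16 called pathway genes, Samhd1, Slfn2 and Ms4a4b were called under all 16 alternatives, and the others were lost under at least 1. No called gene changed direction under any alternative run.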

Other observations

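Of the 10 probe sets that name a member together with other genes, 8 passed the intensity filter and none passed the test over all probe sets. The probe set shared by Isg15, the ubiquitin-like modifier that Usp18 removes, and the locus Gm9706 read 206, 266 and 160 in wild type and 212, 143 and 257 on the arrays with the knockout label, with overlapping groups (log2 change -0.07, SE 0.30, limma adjusted p = 0.935). A second probe set for Ifi202b, shared with another locus, read 214, 77.9 and 451 against 44.9, 63.6 and 50.1, lower without overlap (log2 change -1.68, SE 0.44, limma adjusted p = 0.0506). The probe sets that name Ifi203 beside its copies gave changes of -0.36, -0.23 and 0.28. The probe set shared by Mndal, Ifi211, Ifi205 and Ifi204 gave 0.36 (SE 0.26). Near-identical copies in this cluster mean that the signal of each cannot be assigned to 1 gene.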
